A study of Mus musculus with 3 samples.

Results

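A set of 10 genes known for restraining immune responses was read in RNA sequencing of 3 sorted mouse cell populations. They were taken by symbol from the deposited gene tables: the checkpoint ligands Cd274, Pdcd1lg2 and Lgals9, the enzymes of arginine and tryptophan use Arg1, Arg2, Nos2 and Ido1, the cytokine receptor subunit Il4ra, and the ATP- and AMP-degrading surface enzymes Entpd1 and Nt5e. All 10 have a row among the 23234 genes of each table. The cells came from wild-type C57BL/6J mice of 6 to 15 weeks that had received 10 µg of lipopolysaccharide (LPS, an inflammatory part of bacterial envelopes) in 10 µL of buffered saline into the nostrils; no group without LPS was analysed here. Double-positive cells (DP) were sorted from the nose 2 days after LPS as CD45+Ly6G+SiglecF+. Nasal neutrophils were sorted from the nose 1 day after LPS as CD45+Ly6G+SiglecF-, and blood neutrophils from peripheral blood 1 day after LPS with that same gate. Each group is 1 library, so differences are given with no replicate error and no test, and gate, day and tissue cannot be told apart from the group where they differ together. Whether cells of several mice were pooled is not given in the sources used here.

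PD-L1 (the product of Cd274) and PD-L2 (of Pdcd1lg2) bind the inhibitory receptor PD-1 on T cells, and galectin-9 (of Lgals9) is a ligand of the inhibitory receptor Tim-3. Arginases and inducible nitric oxide synthase compete for arginine, and indoleamine dioxygenase breaks down tryptophan; depletion of either amino acid limits T cell growth. CD39 (of Entpd1) and CD73 (of Nt5e) act in sequence to turn extracellular ATP into adenosine, which dampens neutrophil and T cell activity. Neutrophils recruited to inflamed tissue are known to be able to carry several of these molecules.

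The proximal promoters of the 3 checkpoint ligands are shown because their transcripts followed 3 different patterns, described next, and because Cd274 and Pdcd1lg2 lie side by side, with starts 43481 bases apart and 0 protein-coding genes starting between them. Each run is the 250 bases before the start site, 5′ to 3′ on the gene's strand, from RefSeq for GRCm38.p6, a later build than the mm9 of the deposited tables: chr19:29367188-29367437 (+ strand) for Cd274, chr19:29410669-29410918 (+ strand) for Pdcd1lg2 and chr11:78984925-78985174 (- strand) for Lgals9. Capitals mark matches to 5 motifs searched on both strands: TTCNNNGAA (STAT type), TTC and GAA with any 4 bases between them (STAT6 type), GAAA and GAAA with any 2 bases between them (interferon response core), GGG and CC with any 5 bases between them (kappaB type) and TGANTCA (AP-1).
Cd274: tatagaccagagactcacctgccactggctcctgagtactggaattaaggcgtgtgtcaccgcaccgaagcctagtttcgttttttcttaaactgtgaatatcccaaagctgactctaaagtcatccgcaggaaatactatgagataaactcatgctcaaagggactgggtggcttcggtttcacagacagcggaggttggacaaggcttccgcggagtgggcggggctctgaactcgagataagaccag
Pdcd1lg2: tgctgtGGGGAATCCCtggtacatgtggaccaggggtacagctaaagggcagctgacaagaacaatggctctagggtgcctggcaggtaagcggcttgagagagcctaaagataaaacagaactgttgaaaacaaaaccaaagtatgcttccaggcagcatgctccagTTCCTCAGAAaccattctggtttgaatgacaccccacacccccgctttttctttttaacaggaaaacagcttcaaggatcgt
Lgals9: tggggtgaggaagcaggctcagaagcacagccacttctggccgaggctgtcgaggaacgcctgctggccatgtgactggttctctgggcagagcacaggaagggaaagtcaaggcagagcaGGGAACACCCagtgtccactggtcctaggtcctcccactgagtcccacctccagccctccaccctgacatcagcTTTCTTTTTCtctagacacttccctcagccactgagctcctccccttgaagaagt
The Cd274 window holds none of these letters, which says only that they are not in this window. The Pdcd1lg2 window holds a kappaB type match, GGGGAATCCC, and a STAT6 type match, TTCCTCAGAA; the Lgals9 window holds a kappaB type match, GGGAACACCC, and on the opposite strand an interferon response core, TTTCTTTTTC as printed. No match in these windows overlaps one to another motif. Of 32851 promoter windows of the same length, 45.8% hold the kappaB type letters, 5.85% the STAT6 type, 2.98% the interferon response core, 7.02% TTCNNNGAA and 6.75% TGANTCA. Promoters were matched for 6 of the 10 genes, in 7 windows since Entpd1 has several, and of these 7 windows 3 hold the kappaB type letters, 1 the STAT6 type, 1 the interferon core and 0 either of the others. Arg1, Arg2, Nos2 and Ido1 have no entry in that table.

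Values are FPKM, fragments per kilobase of transcript scaled to the mapped fragments of the library, so levels can be set side by side between genes. The tables sum to between 620230.4 and 663027.1 FPKM per library. Steps between the lowest values gave estimated depths of 54800000 (DP), 12800000 (nasal) and 54300000 (blood) fragments, so the nasal neutrophil values rest on the fewest fragments. Differences are in log2(FPKM + 1), a scale that understates the change of low genes, and a gene counts as higher or lower at 4-fold on that scale, a difference of 2, which is a size and not a test. Among the 10719 genes with a mean of 1 FPKM or more over the 3 libraries, the median difference was 0.57 for DP minus nasal neutrophils, 0.41 for nasal minus blood neutrophils and 0.95 for DP minus blood neutrophils. Centring on these medians changes the share of the genes past 4-fold that were higher from 69.9% to 31.8%, from 80.3% to 61.4% and from 87.1% to 53.5% in the same order. An exact 0 in these tables can be a failed estimate: S100a8, an abundant neutrophil gene, is listed at 0 in blood, and 91 genes at 10 FPKM or more in both nasal libraries are at 0 there.

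The sort markers and the markers of other cells were read beside these genes. The SiglecF gene, listed as Siglec5, was at 167.8 FPKM in DP, 9.92 in nasal and 18.7 in blood neutrophils. All 11 neutrophil markers with a row reached 1 FPKM in both nasal libraries, and 10 did in blood; their summed level was 12898, 58781 and 79646 FPKM in the same order. Macrophage markers summed to 743.2 FPKM in DP, 1025 in nasal and 550.8 in blood neutrophils, with 9, 9 and 4 of 13 at 1 FPKM or more. Of them C1qb, a complement subunit of tissue macrophages, was at 32.3 FPKM in DP and 80.9 in the nasal neutrophil library, and C1qa, C1qb and C1qc are all listed at 0 in blood. Monocyte and dendritic cell markers summed to 1197, 1915 and 512.3 FPKM, with 8, 8 and 6 of 12 at 1 FPKM or more. Epithelial and olfactory markers summed to 3204 FPKM (DP) and 2277 (nasal neutrophils) against 2.27 in blood, where 10 of 16 are listed at 0. Stromal and endothelial markers summed to 36.3, 49 and 38.1 FPKM, with 4, 7 and 2 of 13 at 1 FPKM or more. These similar sums came from different genes: Dcn stood at 21.7, 7.54 and 0.01 FPKM and Acta2 at 6.49, 24.2 and 32.1. The eosinophil list, which holds Siglec5, summed to 179.2, 30.2 and 26.1 FPKM, and its granule genes Epx and Prg3 are listed at 0 in each library. That list also holds Ear1, Ear2 and Ear10, at 1.3, 11.5 and 3.44 FPKM in nasal neutrophils, and Prg2, at 0.19 FPKM in DP and 0.16 in blood. T and NK cell markers summed to 17.5, 8.91 and 14.4 FPKM, B and plasma cell markers to 7.92, 50 and 63.7, mast cell and basophil markers to 1.73, 6.55 and 0.85, and red cell and platelet markers to 22.2, 17.3 and 3474. Ly6g, the other gene of the sort, was not analysed here. In such bulk samples fewer cells of a type and less RNA per cell cannot be told apart, and the part of other cells in the values below was not tested.

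**Figure D1:**
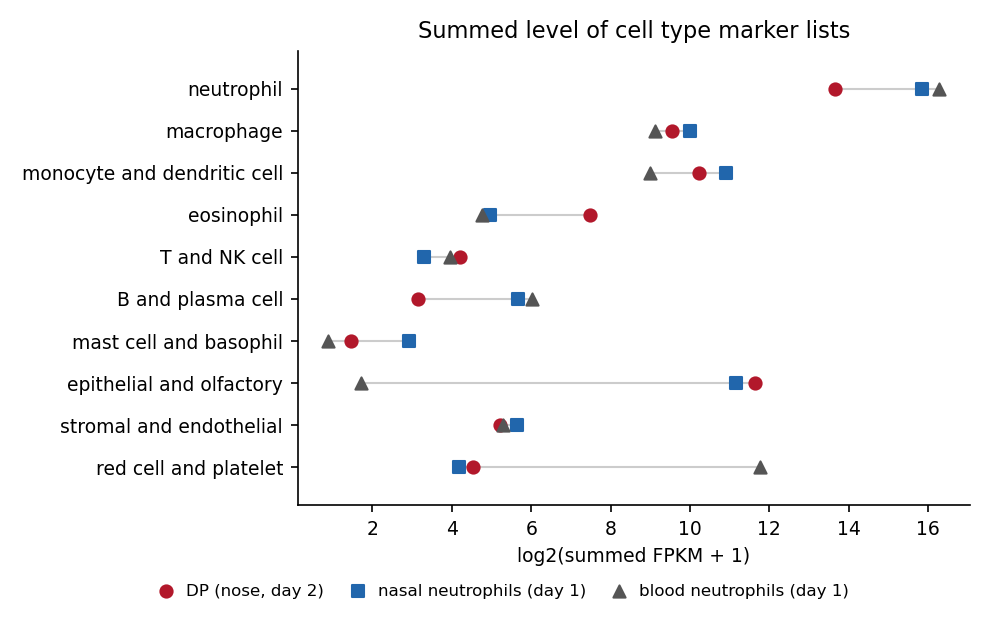
Summed level of 10 lists of cell type markers, as log2 of the summed FPKM plus 1, with 1 point per library. Epithelial and olfactory markers are high in both nasal libraries and near the bottom of the scale in blood, macrophage sums lie within 550.8 to 1025 FPKM, and neutrophil markers are lowest in DP.

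Nasal neutrophils held the highest level of 5 of the 10 genes (Cd274, Pdcd1lg2, Arg1, Nos2 and Il4ra), blood neutrophils that of Lgals9, Arg2 and Entpd1, and DP that of Nt5e and Ido1. Cd274, Arg1 and Nos2 stood out in nasal neutrophils from both other libraries. Arg2, Lgals9 and Entpd1 each differed by less than 2-fold between nasal and blood neutrophils and were lowest in DP. Nt5e was near equal in both nasal libraries and low in blood.

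**Figure D2:**
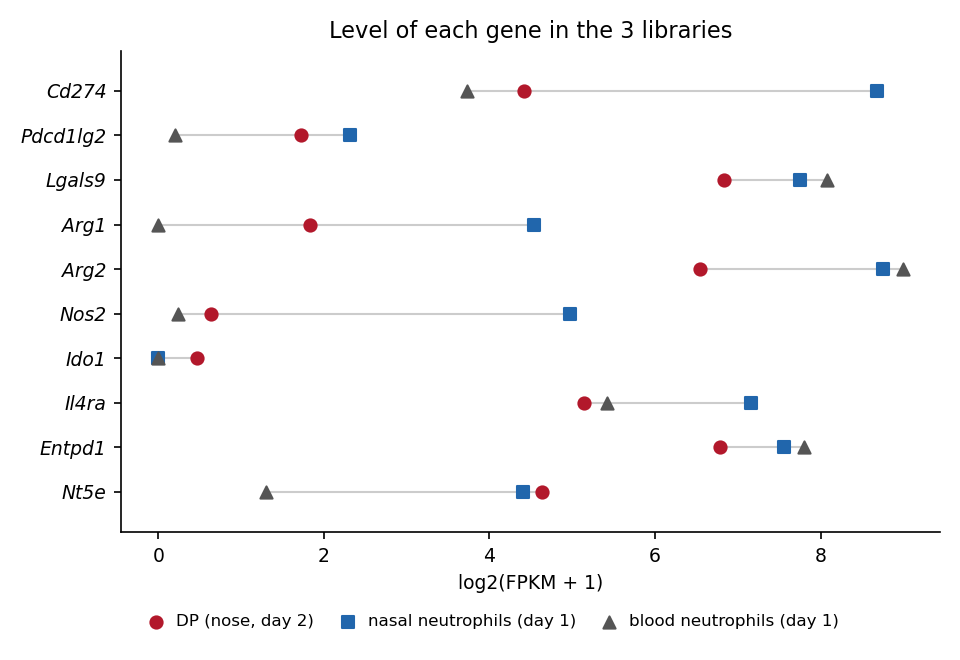
Level of each of the 10 genes on the log2(FPKM + 1) scale, with 1 point per library. Nasal neutrophils lie far to the right for Cd274, Arg1 and Nos2, DP lies to the left for Arg2, Lgals9 and Entpd1, and the nasal libraries lie together for Nt5e.

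Among the checkpoint ligands, Cd274 stood at 20.5 FPKM in DP, 409.4 in nasal and 12.3 in blood neutrophils. It was high in nasal neutrophils only, where it ranked 213 of the 23234 genes by level, against 3393 in DP and 3119 in blood. The level in nasal neutrophils was 20-fold that in DP and 33.2-fold that in blood, on the FPKM scale. DP and blood neutrophils were close, at a DP to blood ratio of 1.66, and the sign of that difference on the log2 scale (0.69) turns to -0.26 with centred ratios.

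Pdcd1lg2, the neighbouring gene for the other PD-1 ligand, stood at 2.3 FPKM in DP, 3.96 in nasal and 0.15 in blood neutrophils. It was low in every library, resting on about 218, 88 and 14 fragments. The nasal neutrophil level was 1.72-fold that in DP and 25.8-fold that in blood. Cd274 was the higher of the pair throughout, at 8.89 times the Pdcd1lg2 level in DP, 103.4 times in nasal and 80.1 times in blood neutrophils.

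Lgals9 stood at 112.9 FPKM in DP, 213.9 in nasal and 269 in blood neutrophils. Unlike Cd274 it was abundant in all 3 libraries and highest in blood, 1.26-fold above nasal neutrophils and 2.38-fold above DP. In DP Cd274 was at 0.18 of the Lgals9 level, and in nasal neutrophils it was at 1.91 times that level.

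The arginine-using enzymes divided between 2 patterns. Arg1, the cytosolic arginase best known from liver and alternatively activated macrophages, stood at 2.57 FPKM in DP and at 22.2 in the nasal neutrophil library and is listed at 0 in blood neutrophils. It was 8.63-fold higher in nasal neutrophils than in DP, on about 420 and 208 fragments. The same contrast held C1qb at 80.9 and 32.3 FPKM, and the macrophage list summed to 1025 and 743.2 FPKM. Cd68 of that list went the other way, at 181.1 FPKM in nasal neutrophils and 296.3 in DP. The part of macrophages in the Arg1 value was not tested.

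Arg2, the mitochondrial arginase, stood at 92.6 FPKM in DP, 431.1 in nasal and 507.7 in blood neutrophils. It was the most abundant of the 10 genes in nasal and in blood neutrophils, ranking 202 and 193 among all genes, against 1096 in DP. Nasal neutrophils were 4.66-fold and blood neutrophils 5.48-fold above DP, while blood exceeded nasal neutrophils by 1.18-fold. Arg2 exceeded Arg1 36-fold in DP and 19.4-fold in nasal neutrophils.

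Nos2, which encodes inducible nitric oxide synthase, stood at 0.55 FPKM in DP, 30.3 in nasal and 0.18 in blood neutrophils. It was near the bottom of the scale in DP and blood, on about 127 and 40 fragments, and on about 1627 in nasal neutrophils. The nasal neutrophil level was 54.6-fold that in DP and 172.9-fold that in blood, the widest ratios among these genes where both values are above 0. Nos2 was above Arg1 in nasal neutrophils, where Arg1 was at 0.73 of its level, and below it in DP, where Arg1 was at 4.64 times its level.

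Ido1, the tryptophan-degrading enzyme, stood at 0.39 FPKM in DP, about 35 fragments, and is listed at 0 in nasal and in blood neutrophils. Its mean of 0.13 FPKM left it below the filter on low values, the only one of the 10 to fall there.

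Il4ra, the receptor chain shared by interleukin 4 and interleukin 13, stood at 34.2 FPKM in DP, 142 in nasal and 41.9 in blood neutrophils. It was highest in nasal neutrophils, 4.16-fold above DP and 3.39-fold above blood. DP and blood differed by 1.23-fold.

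Entpd1, which encodes CD39, stood at 109.5 FPKM in DP, 187.1 in nasal and 222.2 in blood neutrophils. Its order was that of Lgals9 and Arg2, with blood 1.19-fold above nasal neutrophils and 2.03-fold above DP. Nt5e, which encodes CD73, stood at 23.8 FPKM in DP, 20.1 in nasal and 1.47 in blood neutrophils. Both nasal libraries were above blood, DP by 16.2-fold and nasal neutrophils by 13.7-fold, and they differed from each other by 1.18-fold. The Entpd1 to Nt5e ratio was 4.6 in DP, 9.3 in nasal and 151.4 in blood neutrophils. Nt5e is also made by stromal and epithelial cells. The epithelial and olfactory list summed to 3204, 2277 and 2.27 FPKM in the same order, and the stromal and endothelial list to 36.3, 49 and 38.1. Of the latter, Dcn stood at 21.7, 7.54 and 0.01 FPKM and Acta2 at 6.49, 24.2 and 32.1. The part of such cells in the Nt5e values was not tested.

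The nasal populations, with and without SiglecF, were then set side by side against the background of all genes. Of the 10 genes 9 passed the filter, and 5 of these were at least 4-fold lower in DP (Nos2, Cd274, Arg1, Arg2 and Il4ra) where 3.62% of all tested genes were, while 0 reached 4-fold in the other direction, where 8.42% did. The log2 differences of these 5 were -4.33, -4.26, -2.7, -2.21 and -2.02, the last lying just past the threshold. The median over the 9 was -2.02, beside 0.57 over all tested genes. Nos2 and Arg1 passed the filter through the nasal neutrophil library, at 30.3 and 22.2 FPKM. A difference was thus bound to show for Nos2 and was favoured for Arg1, at 2.57 FPKM in DP. The differences of the other 4 were -0.92 for Lgals9, -0.77 for Entpd1, -0.59 for Pdcd1lg2 and 0.23 for Nt5e, the last of which turns to -0.34 with centred ratios and to -0.40 with upper-quartile scaling. With a pseudocount of 5 in place of 1, only 3 of the 9 were at least 4-fold lower.

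Nasal and blood neutrophils share the gate and the day and differ in place. Their libraries also differ in estimated depth, at 12800000 and 54300000 fragments. Epithelial and olfactory markers summed to 2277 against 2.27 FPKM, and red cell and platelet markers to 17.3 against 3474. The part of these differences in the counts was not tested. In nasal neutrophils 5 of the 9 genes were at least 4-fold higher (Cd274, Nos2, Arg1, Nt5e and Pdcd1lg2), where 13.1% of all tested genes were, and 0 were at least 4-fold lower, where 3.23% were. Arg1, Nos2 and Pdcd1lg2 passed the filter through nasal libraries alone, and Nt5e stood at 1.47 FPKM in blood, close to the filter. The log2 differences were 4.95 for Cd274, 4.74 for Nos2, 4.54 for Arg1, which is listed at 0 in blood, 3.1 for Nt5e and 2.1 for Pdcd1lg2. Il4ra, at 1.74, fell short of the threshold. Lgals9, Entpd1 and Arg2 were near equal, at -0.33, -0.25 and -0.24. With a pseudocount of 5 the genes at least 4-fold higher were 3, and the difference of Pdcd1lg2 was 0.80 and that of Nt5e 1.96; Pdcd1lg2 also fell short with centred ratios, at 1.69.

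DP and blood neutrophils differ in gate, day and place at once. Nt5e was the 1 gene at least 4-fold higher in DP, at 3.33, where 24.0% of all tested genes were, and Arg2 the 1 gene at least 4-fold lower, at -2.44, where 3.57% were. In blood Nt5e stood at 1.47 FPKM, close to the filter. Lgals9 and Entpd1 were lower in DP by 1.24 and 1.01 on the log2 scale, short of the threshold, and Il4ra differed by -0.29. Cd274 differed by 0.69 and Nos2 by 0.40; as FPKM, the Nos2 level in DP was 3.16-fold that in blood, at low levels that the log2(FPKM + 1) scale compresses. The count of genes at least 4-fold higher was 3 with a pseudocount of 0.1, which adds Pdcd1lg2 (3.24) and Arg1 (4.74). The 3 comparisons share libraries in pairs, so that a value peculiar to the nasal neutrophil library moves both comparisons with it.

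**Figure D3:**
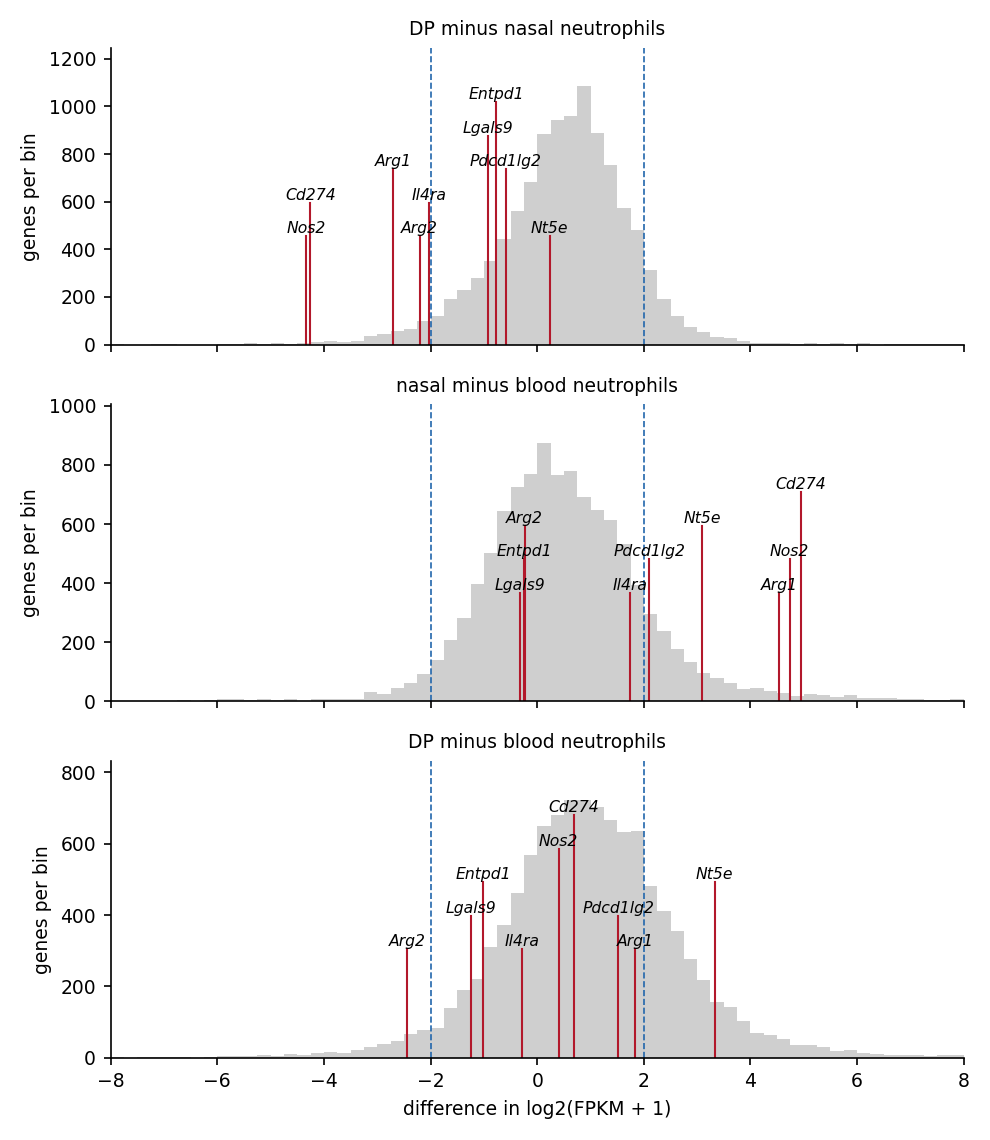
Differences in log2(FPKM + 1) for the 9 genes above the filter (red lines, labelled) over the histogram of all 10719 tested genes (grey), with dashed lines at 4-fold. The axis ends at a difference of 8 in either direction, beyond which lie 11, 29 and 37 tested genes from the upper panel to the lower; 5 of the red lines lie left of the left dashed line in the upper panel, 5 right of the right one in the middle panel, and 1 beyond each in the lower panel.

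The genes whose pattern over the 3 libraries lay nearest to Cd274, by distance in 2 log2 differences (DP minus nasal and nasal minus blood neutrophils) among 5963 genes that averaged 5 FPKM or more and lay above 0 throughout, were Nos2 (distance 0.22), Lipg (0.46) and Ddit4 (0.63). Lipg, which encodes endothelial lipase, stood at 2.62 FPKM in DP, 78 in nasal and 0.91 in blood neutrophils. Nearest to Il4ra were Crlf2 (0.12), Atp2a3 (0.12) and Irf5 (0.15). Crlf2, which encodes a receptor chain for thymic stromal lymphopoietin, stood at 15.7, 64 and 20 FPKM. Nearest to Arg2 were Tagln2 (0.02), Ccnd3 (0.15) and Sgms2 (0.23), with Tagln2 at 22.2, 105.3 and 125.6 FPKM. Nos2, Lipg and Ddit4 reached a mean of 5 FPKM only through the nasal neutrophil library. The nearness of Nos2 to Cd274 holds at the pseudocount of 1. With 0.1 the 2 differences were -4.32 and 5.04 for Cd274 and -5.54 and 6.79 for Nos2. With 5 they were -4.02 and 4.58 for Cd274 and -2.67 and 2.77 for Nos2. With 3 libraries such nearness is a description of these tables.

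Around the checkpoint ligands, 20 of 26 listed partners and other checkpoint molecules with a row passed the filter. In DP against nasal neutrophils 0 were at least 4-fold higher and 1 lower (8.42% and 3.62% of all tested genes), the latter Cd44, a hyaluronan receptor that also binds galectin-9, at 72.7 against 371.6 FPKM. In nasal against blood neutrophils 5 were at least 4-fold higher (Havcr2, Lgals1, Pvrl2, Pvr and Cd200) and 0 lower, where 13.1% and 3.23% of all tested genes were. Lgals1 stood at 2.14 FPKM in blood. Havcr2, Pvrl2, Pvr and Cd200 were below 1 FPKM there and passed the filter through nasal libraries alone, so a difference from blood was bound to show. Genes low in blood could pass it in this way in the lists below too. The median difference of the checkpoint list was -0.21 in DP minus nasal neutrophils, beside 0.57 over all tested genes, and -0.03 in nasal minus blood neutrophils, beside 0.41. Havcr2, which encodes Tim-3, stood at 37 FPKM in DP, 17 in nasal and 0.63 in blood neutrophils. Its order was thus the reverse of that of its ligand gene Lgals9. Lgals1, which encodes galectin-1, stood at 18.9, 21.4 and 2.14 FPKM, Pvr, for a poliovirus receptor that binds inhibitory receptors of lymphocytes, at 1.99, 4.63 and 0.01, and its relative Pvrl2 at 4.13, 5.17 and 0.10.

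Of the genes of arginine transport, polyamine and nitric oxide cofactor synthesis, 18 of 26 passed the filter. In DP against nasal neutrophils 0 were higher at 4-fold and 2 lower, Ass1 and Gch1, beside 8.42% and 3.62% of all tested genes. Ass1, whose product recycles citrulline towards arginine, stood at 3.43 FPKM in DP, 20.4 in nasal and 0.44 in blood neutrophils. Gch1, whose product opens the synthesis of tetrahydrobiopterin, the cofactor of nitric oxide synthases, stood at 7.62, 36.6 and 1.95 FPKM. Both thus had their highest level where Nos2 did. Qdpr, which regenerates that cofactor, was instead highest in DP, at 35.6, 14.4 and 1.72 FPKM. Gatm, which uses arginine to begin creatine synthesis, stood at 6.06, 8.31 and 0.01 FPKM. In nasal against blood neutrophils 7 of the 18 were at least 4-fold higher and 0 lower (13.1% and 3.23% of all tested genes), with a median difference of 1.72 beside 0.41.

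The tryptophan and kynurenine list was little measured, with 7 of 16 genes above the filter. Between DP and nasal neutrophils 0 of the 7 were at least 4-fold apart in either direction, beside 8.42% of all tested genes higher in DP and 3.62% lower. Haao, an enzyme late in the kynurenine pathway, was highest in blood, at 6.21 FPKM in DP, 7.51 in nasal and 38.1 in blood neutrophils. Ahr, the aryl hydrocarbon receptor, which kynurenine can activate, stood at 8.46, 2.61 and 0.96 FPKM. Ccbl1, a kynurenine aminotransferase, stood at 4.8, 1.36 and 0.34 FPKM, and Slc7a5, a transporter of large neutral amino acids, at 3.09, 2.45 and 0.06.

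Genes of extracellular nucleotide and adenosine handling passed the filter in 22 of 28 cases. Between DP and nasal neutrophils 1 was higher in DP at 4-fold, the ADP receptor gene P2ry12 (35.1 against 7.92 FPKM), and 1 lower, Adora2a, beside 8.42% and 3.62% of all tested genes. Adora2a, the adenosine receptor best known for restraining leukocytes, stood at 1.49 FPKM in DP, 17.9 in nasal and 0.14 in blood neutrophils. It passed the filter only through the nasal neutrophil library, so a difference towards that library was favoured. Adora2b, a receptor of lower affinity, stood at 16.7, 46.9 and 0.08 FPKM, so that in both nasal libraries it exceeded Adora2a. Slc29a1, a nucleoside transporter that takes up adenosine, was highest in DP, at 20.4, 6.18 and 0.27 FPKM, and Cd38, an NAD-degrading surface enzyme, was highest in nasal neutrophils, at 11.8, 42 and 3.4 FPKM. In nasal against blood neutrophils 7 of the 22 were at least 4-fold higher and 0 lower (13.1% and 3.23% of all tested genes), with a median difference of 1.44 beside 0.41.

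Of the list of interleukin 4 and interleukin 13 signalling and alternative activation, 17 of 30 genes passed the filter. In DP against nasal neutrophils 0 were at least 4-fold higher and 4 lower (8.42% and 3.62% of all tested genes): Chi3l3, Chi3l4, Tgm2 and Ccl22. Ccl22, a chemokine gene listed at 0 in blood and standing at 0.80 FPKM in DP against 9.24 in the nose-derived neutrophils, passed the filter only through the nasal neutrophil library, so its difference was bound to show. Ccl17, a related chemokine gene, was instead highest in DP, at 21.4 against 6.61 FPKM, and is also listed at 0 in blood. The chitinase-like genes Chi3l3 and Chi3l4, close relatives whose reads may be divided between them, stood at 16.7, 449.4 and 48.9 FPKM and at 3.11, 50.5 and 4.55 FPKM in that order of libraries. Tgm2, for tissue transglutaminase, stood at 50.3, 414.8 and 14.8 FPKM, and Socs1, a feedback inhibitor of cytokine receptors, at 18.4, 59.7 and 1.91. The partner chains of Il4ra did not share its order: Il13ra1 stood at 109.1, 81.1 and 180.2 FPKM and Il2rg at 130.8, 110.7 and 19.4. Stat6, the transcription factor that acts below Il4ra, stood at 37.2, 107 and 116.5 FPKM. The list's median difference was -1.50 in DP minus nasal neutrophils and 2.08 in nasal minus blood neutrophils, where 9 of the 17 were at least 4-fold higher and 0 lower (13.1% and 3.23% of all tested genes). Over all tested genes those medians were 0.57 and 0.41.

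Of known regulators of these genes in the interferon, STAT and hypoxia pathways, 25 of 26 passed the filter. In DP against nasal neutrophils 0 were at least 4-fold higher and 2 lower (8.42% and 3.62% of all tested genes), Il10 (0.24 against 10.9 FPKM) and its receptor gene Il10ra (21.7 against 93.5). Il10 passed the filter only through the nasal neutrophil library, so its difference was bound to show. Cebpb stood at 156.1 FPKM in DP, 207.7 in nasal and 2.71 in blood neutrophils, and Jun at 191.5, 302.9 and 6.32. Socs3 stood at 397.8, 1018 and 58.8 FPKM and Epas1, which encodes HIF-2 alpha, at 9.7, 12.8 and 0.02. These 4 were thus higher in both nasal libraries than in blood. The median difference of the list was -0.66 in DP minus nasal neutrophils and 1.45 in nasal minus blood neutrophils, where 9 of the 25 were at least 4-fold higher and 0 lower (13.1% and 3.23% of all tested genes). Over all tested genes those medians were 0.57 and 0.41. Against blood neutrophils, where 24.0% of all tested genes were higher in DP at 4-fold and 3.57% lower, DP had 4 higher and 1 lower of the 20 checkpoint genes at 4-fold, 7 and 1 of the 18 arginine genes, 2 and 1 of the 7 tryptophan genes, 8 and 0 of the 22 adenosine genes, 3 and 0 of the 17 interleukin genes and 5 and 0 of the 25 regulators.

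**Figure D4:**
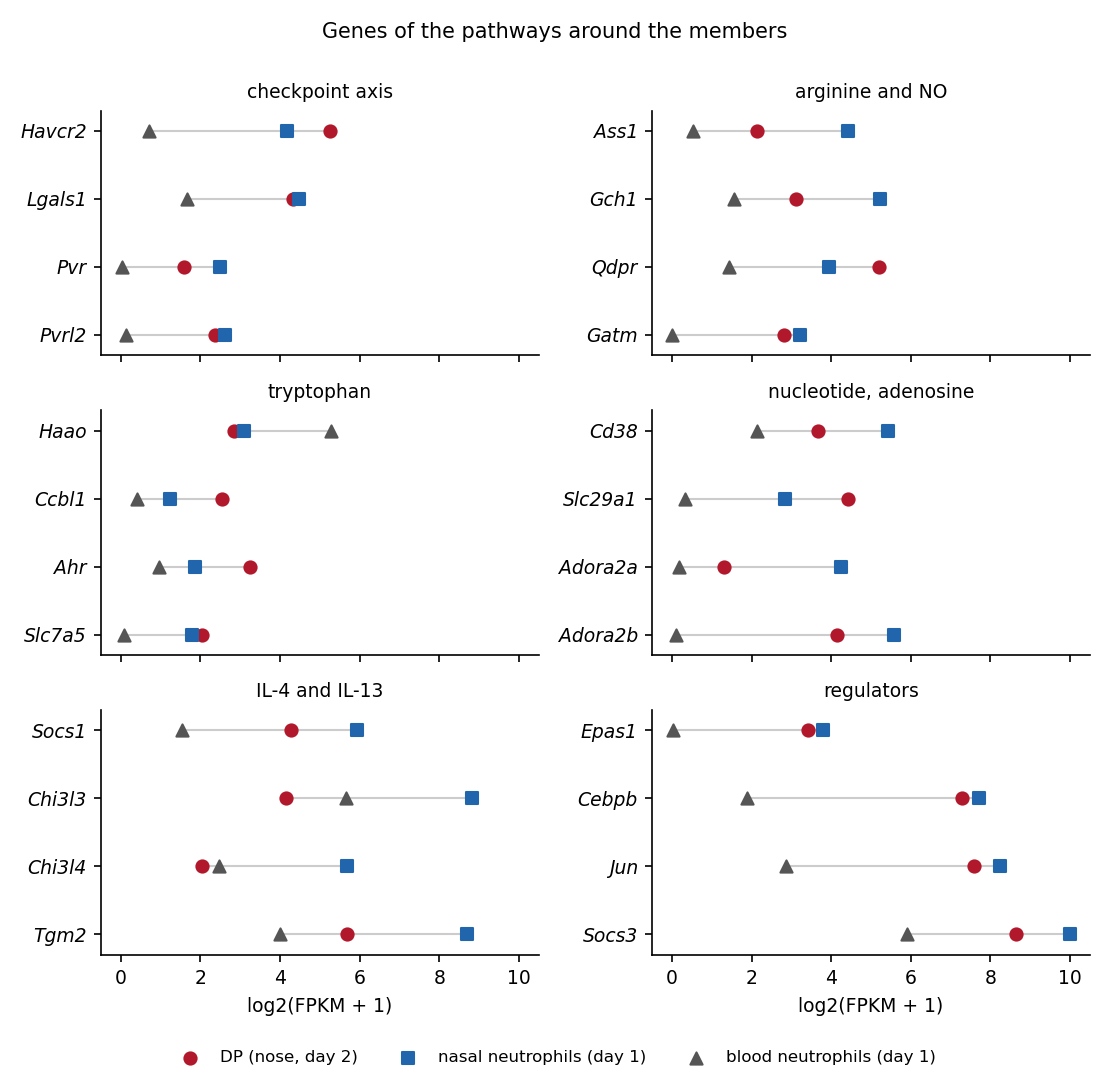
Levels on the log2(FPKM + 1) scale, 1 point per library, for the 4 genes of each of 6 pathway lists with the largest difference between any libraries among those above 0 in all 3. Ass1, Gch1, Adora2a, Chi3l3 and Tgm2 are highest in nasal neutrophils, Havcr2, Qdpr, Slc29a1 and Ahr in DP, and Haao in blood neutrophils.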

How the data were processed

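RNA was sequenced from 3 sorted cell populations, 1 library each; per the labels' protocols, sorted cells were lysed in TRIzol LS and libraries made with a low-input kit. The deposited values are FPKM per gene symbol; the submitters' processing notes name Cufflinks 2.1.1, TopHat2 2.0.8, Bowtie2 2.1.0 and the mm9 build, without roles or settings, which were not given in the sources used here. No count model was applied to FPKM. Values below 1e-06 FPKM were set to 0 (32 in DP, 20 in nasal and 43 in blood neutrophils). Differences were computed as log2(FPKM + 1) over genes at a mean of 1 FPKM or more, called at 4-fold, with Python 3.11.15 and pandas 2.3.3, and the counting was tested on simulated data. Depth was estimated from the commonest low value times transcript length (GENCODE M21, lengths only) over genes with a single transcript above 1500 nt; fragment numbers are approximate and use the longest transcript, and 65, 73 and 51 genes lay within 10% of that step in DP, nasal and blood neutrophils, so they rest on few genes. Genes were named if they were among the 10, among the 4 largest differences of a pathway list (genes above the filter and above 0 in all 3 libraries), or among the 3 nearest in pattern to Cd274, Il4ra or Arg2. Cd44, Cd200, P2ry12, Ccl17, Ccl22, Il10, Il10ra, Il13ra1, Il2rg and Stat6 are not covered by it and were picked with their values in view. The same holds for Retnla, Mrc1, Dcn, Acta2, Alox15 and Ccr3. The genes, 6 pathway lists and 10 marker lists were chosen with earlier results of these data known. Listed symbols without a row were not analysed here. Protein sequences were not used here. Alternatives were other pseudocounts, filters and scalings, and a 2-fold threshold.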

Additional observations from a re-analysis of the deposited data

How the results depend on the processing

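No paired analysis was possible because each group is 1 library, which also leaves no library to leave out; depth limits the nasal neutrophil library most, and no setting gives a replicate error. For single genes, 131 of 150 differences under other pseudocounts and scalings stayed in the same direction and on the same side of 4-fold, and 0 genes past 4-fold changed direction. The 150 include Ido1, which is below the filter, and leave out division by Ptprc, described below. That division turned Lgals9, Arg2 and Entpd1 in nasal minus blood neutrophils from -0.33, -0.24 and -0.25 to 2.06, 2.16 and 2.15. It also turned Nt5e in DP minus nasal neutrophils from 0.23 to -1.46 and Il4ra in DP minus blood neutrophils from -0.29 to 0.40. For DP minus nasal neutrophils, the 5 genes at least 4-fold lower became 3 with a pseudocount of 5, which by construction shrinks differences of low genes most. It took Arg1, a low gene, to -1.84 and Il4ra, which lay just past the threshold at -2.02, to -1.91. The median of -2.02 became -2.67 with upper-quartile scaling. For nasal minus blood neutrophils, the 5 at least 4-fold higher became 3 with a pseudocount of 5, and the median of 2.1 became 3.69 with a pseudocount of 0.1. For DP minus blood neutrophils, the 1 gene at least 4-fold higher became 3 with a pseudocount of 0.1, 2 with values rescaled to a sum of 1000000 and 3 at a 2-fold threshold; the 1 at least 4-fold lower became 2 with centred ratios, 2 with upper-quartile scaling and 3 at 2-fold; and the median of 0.40 became -0.55 with centred ratios and -0.11 with upper-quartile scaling. The cause of the other shifts was not tested. Centring moved the genes at least 4-fold higher and lower among all tested genes from 903 and 388 to 360 and 773 for DP minus nasal neutrophils, from 1408 and 346 to 968 and 609 for nasal minus blood neutrophils, and from 2577 and 383 to 1116 and 971 for DP minus blood neutrophils.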

Other observations

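Read per transcript of Ptprc, the gene of CD45 on which all 3 populations were sorted, a scaling chosen after the data were seen, several of the 10 genes changed order. Ptprc itself stood at 445.1 FPKM in DP, 136.7 in nasal and 718.8 in blood neutrophils, so this scaling raises the nasal neutrophil values. Cd274 was at 4.6% of the Ptprc level in DP, 299.4% in nasal and 1.71% in blood neutrophils. Lgals9, which is highest in blood as FPKM, was at 25.4%, 156.4% and 37.4% in the same order, Arg2 at 20.8%, 315.3% and 70.6% and Entpd1 at 24.6%, 136.8% and 30.9%, so that on this scale all of them were highest in nasal neutrophils. Nt5e was at 5.35%, 14.7% and 0.20%, and the near equality of both nasal libraries was lost.

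Per transcript of Csf3r, the receptor gene for granulocyte colony-stimulating factor, which stood at 581.4, 606.8 and 1180 FPKM, the nasal libraries kept nearly their FPKM ratios. Cd274 was at 3.52%, 67.5% and 1.04% of the Csf3r level, Nt5e at 4.09%, 3.32% and 0.12%, and Entpd1 at 18.8%, 30.8% and 18.8%. Lgals9 was at 19.4%, 35.2% and 22.8% and Arg2 at 15.9%, 71.1% and 43%, so that Lgals9, Arg2 and Entpd1 were highest in nasal neutrophils on this scale too.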
